A study of Homo sapiens with 6 samples.

Results

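The genes of mitochondrial protein import described here were chosen by name. They are those whose symbol starts with TIMM or TOMM and a digit, TIMMDC1, and 11 further genes with a row among the motor, SAM, intermembrane space oxidation and peptidase genes. Their names gave 35 rows of the table, of which 34 reached a level of at least 1 TPM (a gene's share of all transcripts in a library, per length, scaled to the same total in each) in 2 or more libraries, against 11151 of all 18806 genes. TOMM20L, a paralog of the receptor gene TOMM20, stayed between 0 and 0.28 TPM and was left out. PAM16, a motor subunit, is not analysed here.

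Most mitochondrial proteins are made in the cytosol and enter the organelle through membrane complexes. The translocase of the outer membrane (TOM) takes up nearly all precursors, the sorting and assembly machinery (SAM) inserts β-barrel proteins, and the translocases of the inner membrane (TIM22 and TIM23) pass carriers into the membrane or presequence proteins into the matrix. A motor built around the matrix chaperone HSPA9, with TIMM44, J-domain proteins and GrpE-type exchange factors, pulls presequence proteins inward, and a peptidase of paired subunits then removes the presequence. Leukemic blasts are known for their reliance on mitochondrial metabolism, which needs these proteins to be imported.

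The line, Mono-mac-6, comes from a human acute monocytic leukemia and carries the MLL-AF9 fusion, and poly(A)+ RNA was sequenced as bulk. All groups came from a single Cas9 clone that received a lentiviral guide. The groups were sgDDX6.1 and sgDDX6.2, guides against the RNA helicase gene DDX6, and sgNS, the control guide, with 2 libraries each. All groups went through selection with blasticidin at 10 µg per ml and hygromycin at 200 µg per ml, stated to last 1 to 2 weeks, while harvest is labelled as day 8, so the day is uncertain. The labels do not say that libraries came from separate cultures, so the p-values rest on a spread between libraries that may be purely technical.

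DDX6 had 54.4 and 51.97 TPM in the sgDDX6.1 libraries, 52.3 and 53.5 TPM in the sgDDX6.2 libraries, and 102 and 99.5 TPM in the sgNS libraries, and fell by 47.4% (adjusted p = 4.61e-09). Of 8 monocytic markers, 6 reached 1 TPM in every library (CD33, LYZ, SPI1, CD68, FCGR1A and ITGAM). CD14 stayed between 0.37 and 1.36 TPM. The summed monocytic markers, mostly LYZ, came to 14520 to 15760 TPM in sgDDX6 libraries and 10080 to 10570 TPM in sgNS libraries. Of the 5 lymphoid markers, CD3D, CD3E and MS4A1 were listed at 0, and the summed level, nearly all NKG7, was 129 to 188 TPM in sgDDX6 libraries and 104 to 111 TPM in sgNS libraries. The erythroid marker HBB was listed at 0, and the sum of the 2 epithelial markers, nearly all KRT18, was 10.8 to 18.8 TPM in sgDDX6 libraries and 19.6 to 19.8 TPM in sgNS libraries. The part of these shifts in the import gene results was not tested. In bulk RNA, fewer cells of a type and less RNA per cell cannot be told apart.

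Over both guides, 21 of the 34 import genes rose and 8 fell against sgNS at an adjusted p under 0.05 (limma on log2(TPM + 1), Benjamini-Hochberg over 11151 genes). DNAJC15, GFER, TIMM17B, TIMM8B and TOMM70 did not pass the test. The share that rose was 61.8%, against 33.8% of all genes tested, and the share that fell was 23.5%, against 32.9% (66.7% in either direction). This contrast averages the 2 guides, so a member could rise in it through 1 guide alone. Members called higher with each guide taken singly numbered 16, and those called lower with each 8. That share was not computed for all genes. With sgDDX6.2 alone, GRPEL1 and TIMM13, which rose over both guides, had log2 differences of -0.03 and -0.02. All 4 sgDDX6 libraries lay above both sgNS libraries for 18 members and below both for 8, while 31.5% of all genes lay above and 31.9% below in this way (63.4% in either direction). The median log2 difference was 0.20 for the members and 0.00084 for all genes, and the median size of a difference, without its sign, was 0.26 for the members and 0.23 for all genes.

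Summed over the 34 genes, the level was 3489.5 and 3565 TPM in the sgDDX6.1 libraries, 3289.5 and 3293 TPM in the sgDDX6.2 libraries, and 3023 and 3034 TPM in the sgNS libraries. Every sgDDX6 library lay above both sgNS libraries in this sum, which took 0.349% and 0.357% of the TPM of the sgDDX6.1 libraries, 0.329% and 0.329% of the sgDDX6.2 libraries, and 0.302% and 0.303% of the sgNS libraries. The median TPM over the members within each library ran the other way, at 62.2 and 62.4 TPM in the sgDDX6.1 libraries, 56.2 and 57.7 TPM in the sgDDX6.2 libraries, and 66.7 and 66.2 TPM in the sgNS libraries. That median can fall on different genes in each library, and the median of the members' own log2 differences was 0.20. The 3 small TOM genes alone summed to 952 and 998 TPM in the sgDDX6.1 libraries, 1029 and 1015 TPM in the sgDDX6.2 libraries, and 747 and 729 TPM in the sgNS libraries. TOMM6 was the most abundant member in both sgDDX6 groups, with means of 493 and 585 TPM, and TOMM20 in sgNS, at 307 TPM. TOMM6 alone had 588 and 582 TPM in the sgDDX6.2 libraries and 302 and 279.9 TPM in the sgNS libraries. With sgDDX6.2 this gap was larger than that of the sum over all members, so the other members together did not lie above sgNS. With sgDDX6.1 it was smaller than that of the sum. DNAJC15 was the lowest in all 3 groups, between 9.91 and 11.6 TPM on average.

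Over both guides only GRPEL2 changed by 2-fold or more, against 3.41% of all genes, and 6 members were called with a log2 difference of at least 0.5 in size, against 17.4%. TOMM6, TIMM21 and PMPCA were the 3 that rose, and GRPEL2, TIMM44 and DNAJC19 the 3 that fell. Among all 11151 log2 differences ranked from low to high, GRPEL2 stood at percentile 0.995 and TOMM6 at percentile 98.4.

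**Figure D1:**
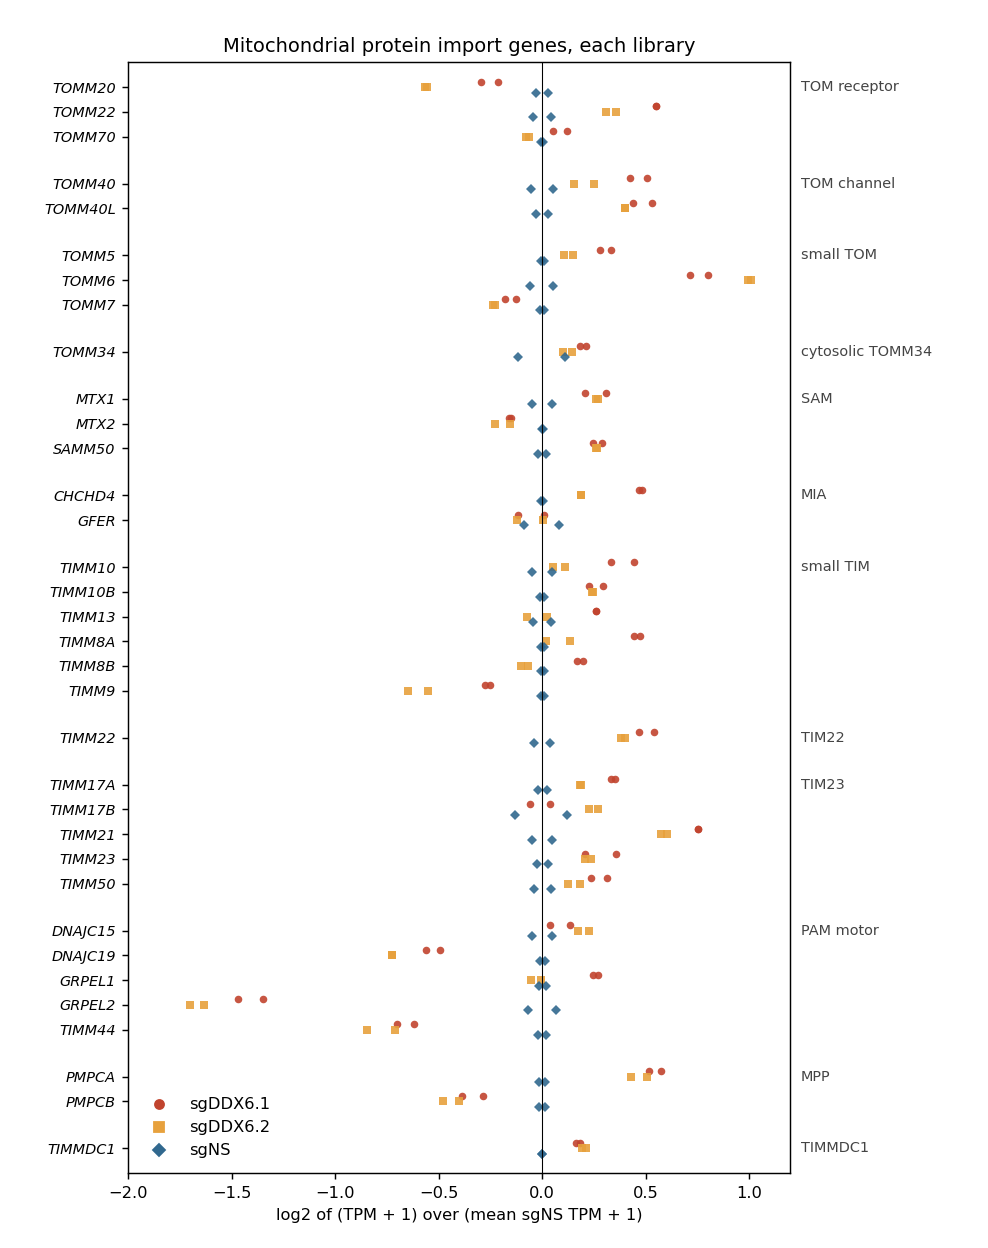
Level of each import gene in every library, as log2 of (TPM + 1) over the mean sgNS value (x axis), with genes down the page in groups by role. Circles are sgDDX6.1 libraries, squares sgDDX6.2 and diamonds sgNS; GRPEL2 lies farthest left (log2 difference -1.54 over both guides) and TOMM6 farthest right (0.88), and the motor genes GRPEL2, TIMM44 and DNAJC19 stand left of the line while the TIM23 genes stand mostly right of it.

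The 250 bases before the RefSeq start (GRCh38.p14, each on the gene's own strand) are printed for the members with the 2 lowest and the 2 highest log2 differences. GRPEL2 lies at chr5:149345430-149354583, plus strand, TIMM44 at chr19:7926718-7943920, minus strand, TIMM21 at chr18:74148511-74160530, plus strand, and TOMM6 at chr6:41787662-41789898, plus strand (GENCODE release 29, GRCh38). The windows shown are chr5:149345249-149345498, plus strand for GRPEL2, chr19:7943667-7943916, minus strand for TIMM44, chr18:74148273-74148522, plus strand for TIMM21, and chr6:41787444-41787693, plus strand for TOMM6. The RefSeq and GENCODE starts differ, so the TIMM44 window lies wholly within its GENCODE gene. The windows of GRPEL2, TIMM21 and TOMM6 also end within theirs, so not all bases shown are upstream of both starts. Capitals mark the letters CCGGAAG, the core bound by ETS-family factors, on either strand.
GRPEL2: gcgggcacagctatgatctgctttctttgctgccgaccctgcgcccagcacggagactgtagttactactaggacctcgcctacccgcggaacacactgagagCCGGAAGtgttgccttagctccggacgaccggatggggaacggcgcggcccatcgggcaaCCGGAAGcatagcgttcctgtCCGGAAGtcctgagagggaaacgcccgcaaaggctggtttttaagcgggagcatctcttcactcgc
TIMM44: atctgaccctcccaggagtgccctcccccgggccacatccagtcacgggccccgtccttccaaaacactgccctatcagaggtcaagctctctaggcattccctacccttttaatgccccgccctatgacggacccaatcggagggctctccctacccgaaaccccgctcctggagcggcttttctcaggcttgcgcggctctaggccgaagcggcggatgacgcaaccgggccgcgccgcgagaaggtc
TIMM21: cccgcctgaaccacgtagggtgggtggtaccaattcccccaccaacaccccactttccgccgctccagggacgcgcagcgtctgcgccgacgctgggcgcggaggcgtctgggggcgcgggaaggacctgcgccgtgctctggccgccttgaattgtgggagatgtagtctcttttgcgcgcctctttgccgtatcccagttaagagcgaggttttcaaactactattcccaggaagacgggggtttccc
TOMM6: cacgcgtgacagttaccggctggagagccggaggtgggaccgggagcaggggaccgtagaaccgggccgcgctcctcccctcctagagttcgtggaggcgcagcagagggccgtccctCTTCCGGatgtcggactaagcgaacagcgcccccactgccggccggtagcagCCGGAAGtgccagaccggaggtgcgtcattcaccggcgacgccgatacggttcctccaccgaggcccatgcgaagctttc
GRPEL2, which fell most, holds these letters 3 times, starting at -147, -87 and -66 from the start site, and TOMM6, which rose most, holds them at -132 and -80. The GRPEL2 match at -66 lies past the GENCODE start of the gene. The windows of TIMM44 and TIMM21 hold none. The letters stood in windows of members that moved in opposite directions, and a match describes the letters only.

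Windows of 300 bases (250 before to 50 after the start) were found for 31 of the 34 members and for 8717 tested genes. The 7 motifs were searched on both strands, were chosen after values had been seen, and had no overlapping matches. CCGGAAG was in 14 member windows (45.2%), against 20.6% of all, and 8 of those members rose, 4 fell and 2 were not called. Among all 34 members 61.8% rose and 23.5% fell, and the splits by motif stand beside those shares. The NRF1 motif, GCGC followed after any 2 bases by GCGC, read by a regulator of nuclear genes for mitochondrial proteins, was in 7 (22.6%, against 16.7%), of which 3 rose and 4 fell. AANATGGC, a YY1 core, was in 6 (19.4%, against 10.9%), of which 3 rose, 2 fell and 1 was not called. The E-box CACGTG was in 3 (9.7%, against 10.6%), of which 2 rose and 1 fell. CCAAT was in 12 (38.7%, against 37.2%), of which 7 rose, 4 fell and 1 was not called. TGATGNAA, the element bound by ATF4 with a C/EBP partner, was in PMPCB, which fell, and in TIMM22, which rose (6.5%, against 1.6%). The heat shock element, GAA, TTC and GAA each spaced by any 2 bases, was in 0 of 31, against 0.3% of all windows.

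The TOM receptors parted. TOMM20, which binds presequences, fell, TOMM22, the central receptor, rose, and TOMM70, the receptor for carrier precursors delivered by cytosolic chaperones, did not pass the test. TOMM20 had 265 and 249.7 TPM in the sgDDX6.1 libraries, 208 and 207 TPM in the sgDDX6.2 libraries, and 313 and 301 TPM in the sgNS libraries. The groups did not overlap, and TOMM20 fell by 24.2% (log2 difference -0.41 ± 0.04, SE; adjusted p = 1.37e-06). TOMM22 had 121 and 121 TPM in the sgDDX6.1 libraries, 106 and 102 TPM in the sgDDX6.2 libraries, and 80.1 and 84.9 TPM in the sgNS libraries. All sgDDX6 libraries were above sgNS, by a log2 difference of 0.44 ± 0.04 (SE, adjusted p = 1.53e-06). TOMM70 had 134 and 128 TPM in the sgDDX6.1 libraries, 118 and 116 TPM in the sgDDX6.2 libraries, and 124 and 123 TPM in the sgNS libraries, so sgNS lay between the guides (log2 difference 0.01 ± 0.04, SE; adjusted p = 0.872). Summed receptor level was 520.0 and 499 TPM in the sgDDX6.1 libraries, 432 and 426 TPM in the sgDDX6.2 libraries, and 516 and 508 TPM in the sgNS libraries, lower in sgDDX6.2 than in all other libraries.

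Both channel genes rose. TOMM40, the β-barrel pore of the complex, had 232 and 246 TPM in the sgDDX6.1 libraries, 192 and 206 TPM in the sgDDX6.2 libraries, and 166 and 179 TPM in the sgNS libraries. Its groups did not overlap (log2 difference 0.34 ± 0.04, SE; adjusted p = 3.69e-05). TOMM40L, a paralog of TOMM40, had 48.2 and 51.4 TPM in the sgDDX6.1 libraries, 46.9 and 47.0 TPM in the sgDDX6.2 libraries, and 34.5 and 36.0 TPM in the sgNS libraries, with a log2 difference of 0.44 ± 0.05 (SE, adjusted p = 5.5e-06). The call for TOMM40 with sgDDX6.2 alone ended without sgDDX6.2 replicate 2 (log2 difference 0.16, adjusted p = 0.0549).

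Of the small subunits that hold the TOM complex together, TOMM6 and TOMM5 rose and TOMM7 fell. TOMM6 had 479 and 508 TPM in the sgDDX6.1 libraries, 588 and 582 TPM in the sgDDX6.2 libraries, and 302 and 279.9 TPM in the sgNS libraries. Every sgDDX6 library was above both sgNS libraries, and TOMM6 rose by 85.1% (log2 difference 0.88 ± 0.04, SE; adjusted p = 3.49e-09). All 637 bases of its transcript lie within exons of AL365205.1 on the same strand, a locus to which its reads could also be given. TOMM5 had 287 and 298 TPM in the sgDDX6.1 libraries, 262 and 254 TPM in the sgDDX6.2 libraries, and 235 and 237 TPM in the sgNS libraries, a log2 difference of 0.22 ± 0.03 (SE, adjusted p = 0.00012). TOMM7, which in human cells also helps to hold the kinase PINK1 at the outer membrane, had 186 and 193 TPM in the sgDDX6.1 libraries, 180.1 and 179 TPM in the sgDDX6.2 libraries, and 209.5 and 212 TPM in the sgNS libraries. It lay below sgNS in all sgDDX6 libraries (log2 difference -0.19 ± 0.03, SE; adjusted p = 0.00034). For TOMM5 the sgDDX6.2 call (log2 difference 0.13, adjusted p = 0.0119) ended without sgDDX6.2 replicate 1 (adjusted p = 0.12) and without sgNS replicate 1 (adjusted p = 0.0561).

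TOMM34, a cytosolic cochaperone of Hsp70 and Hsp90, had 39.7 and 38.9 TPM in the sgDDX6.1 libraries, 36.7 and 37.9 TPM in the sgDDX6.2 libraries, and 31.4 and 36.9 TPM in the sgNS libraries. One control library was near the sgDDX6 levels, and the groups overlapped. Its call over both guides (log2 difference 0.16 ± 0.06, SE; adjusted p = 0.0312) ended without sgNS replicate 1 (log2 difference 0.05, adjusted p = 0.515), without either sgDDX6.1 library (adjusted p = 0.0805 and 0.0619) and without sgDDX6.2 replicate 2 (adjusted p = 0.0729). Its call with sgDDX6.1 ended without sgNS replicate 1 (log2 difference 0.09, adjusted p = 0.298) and without either sgDDX6.1 library (adjusted p = 0.115 and 0.0784). With sgDDX6.2 it was called without sgNS replicate 2 (log2 difference 0.24, adjusted p = 0.00784).

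In the SAM complex, SAMM50 and MTX1 rose and MTX2 fell. SAMM50, the β-barrel that inserts other β-barrels, had 47.1 and 48.6 TPM in the sgDDX6.1 libraries, 47.6 and 47.8 TPM in the sgDDX6.2 libraries, and 39.1 and 40.1 TPM in the sgNS libraries (log2 difference 0.27 ± 0.04, SE; adjusted p = 2e-04). MTX1, a metaxin that faces the cytosol, had 46.6 and 50.0 TPM in the sgDDX6.1 libraries, 48.7 and 48.4 TPM in the sgDDX6.2 libraries, and 38.8 and 41.6 TPM in the sgNS libraries (log2 difference 0.26 ± 0.05, SE; adjusted p = 0.000533). For both, all sgDDX6 libraries lay above sgNS. MTX2, the partner metaxin, had 57.2 and 56.9 TPM in the sgDDX6.1 libraries, 54.2 and 57.1 TPM in the sgDDX6.2 libraries, and 63.8 and 63.6 TPM in the sgNS libraries, all sgDDX6 libraries below sgNS (log2 difference -0.17 ± 0.04, SE; adjusted p = 0.00304). The MTX2 call ended when a trend on transcript GC content was removed (log2 difference -0.08, adjusted p = 0.0689). With a single guide it ended without sgNS replicate 1 for sgDDX6.1 (adjusted p = 0.0545) and without sgDDX6.2 replicate 1 for sgDDX6.2 (adjusted p = 0.0704).

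CHCHD4, the oxidoreductase that traps cysteine-rich proteins in the intermembrane space, had 64.2 and 63.5 TPM in the sgDDX6.1 libraries, 52.1 and 52.1 TPM in the sgDDX6.2 libraries, and 45.5 and 45.7 TPM in the sgNS libraries. The 3 groups stood in 3 separate steps, and CHCHD4 rose by 27.2% over both guides (log2 difference 0.33 ± 0.04, SE; adjusted p = 1.9e-05). GFER, the sulfhydryl oxidase that recharges CHCHD4, had 15.5 and 17.0 TPM in the sgDDX6.1 libraries, 15.4 and 16.9 TPM in the sgDDX6.2 libraries, and 15.8 and 17.9 TPM in the sgNS libraries. Its groups overlapped, and it was not called over both guides (log2 difference -0.05 ± 0.07, SE; adjusted p = 0.513) or with either guide. With a trend on transcript GC content removed, an alternative added after the data were seen, it was called lower with sgDDX6.2 (log2 difference -0.17, adjusted p = 0.028).

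The small TIM proteins are CHCHD4 substrates that chaperone hydrophobic precursors across the intermembrane space. Of 6 genes, 4 rose over both guides (TIMM10, TIMM10B, TIMM8A and TIMM13), beside 33.8% of all genes. TIMM9 fell and TIMM8B did not pass the test. TIMM9 had 58.3 and 59.2 TPM in the sgDDX6.1 libraries, 47.9 and 44.8 TPM in the sgDDX6.2 libraries, and 71.2 and 70.4 TPM in the sgNS libraries. It fell by 25.8%, with no overlap (log2 difference -0.43 ± 0.04, SE; adjusted p = 4.01e-06). TIMM10, which forms a hexamer with TIMM9, had 91.9 and 99.2 TPM in the sgDDX6.1 libraries, 78.6 and 75.4 TPM in the sgDDX6.2 libraries, and 70.4 and 75.1 TPM in the sgNS libraries, all sgDDX6 libraries above sgNS though sgDDX6.2 only narrowly (log2 difference 0.23 ± 0.05, SE; adjusted p = 0.00082). TIMM10B, which sits on the TIM22 complex, had 60.2 and 57.6 TPM in the sgDDX6.1 libraries, 58.2 and 58.3 TPM in the sgDDX6.2 libraries, and 48.7 and 49.3 TPM in the sgNS libraries (log2 difference 0.25 ± 0.04, SE; adjusted p = 0.000224). Its sgDDX6 libraries lay together above sgNS.

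TIMM8A, whose loss causes a deafness and dystonia syndrome, had 45.9 and 46.9 TPM in the sgDDX6.1 libraries, 36.8 and 34.0 TPM in the sgDDX6.2 libraries, and 33.3 and 33.7 TPM in the sgNS libraries (log2 difference 0.27 ± 0.05, SE; adjusted p = 0.000456). TIMM13, the partner of TIMM8 proteins, had 75.0 and 74.9 TPM in the sgDDX6.1 libraries, 59.4 and 63.4 TPM in the sgDDX6.2 libraries, and 60.5 and 64.4 TPM in the sgNS libraries (log2 difference 0.12 ± 0.05, SE; adjusted p = 0.0359). TIMM8B, the other TIMM8 gene, had 126 and 129 TPM in the sgDDX6.1 libraries, 104 and 107 TPM in the sgDDX6.2 libraries, and 111 and 113 TPM in the sgNS libraries (log2 difference 0.05 ± 0.04, SE; adjusted p = 0.243). In these genes the sgDDX6.1 libraries stood above the rest, while sgDDX6.2 lay near or below sgNS. The TIMM13 call ended without either sgDDX6.1 library (adjusted p = 0.0603 and 0.0594), without sgDDX6.2 replicate 2 (adjusted p = 0.14) and without sgNS replicate 1 (log2 difference 0.07, adjusted p = 0.298). With the 4 sgDDX6 libraries as a single group, TIMM10 and TIMM8A were no longer called either (adjusted p = 0.117 and 0.13).

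At the inner membrane, the carrier translocase gene rose. TIMM22, the channel for carriers, had 24.5 and 25.9 TPM in the sgDDX6.1 libraries, 23.4 and 23.1 TPM in the sgDDX6.2 libraries, and 17.97 and 17.0 TPM in the sgNS libraries. The groups did not overlap, and TIMM22 rose by 38.6% (log2 difference 0.45 ± 0.05, SE; adjusted p = 1.71e-05). C19orf52, the older symbol of TIMM29, a TIM22 subunit that the name rule does not take in, had 34.4 and 35.9 TPM in the sgDDX6.1 libraries, 30.9 and 32.3 TPM in the sgDDX6.2 libraries, and 27.3 and 27.5 TPM in the sgNS libraries (log2 difference 0.27 ± 0.05, SE; adjusted p = 0.00036). It too was higher in every sgDDX6 library.

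Of 5 genes of the TIM23 complex, 4 rose over both guides and 0 fell, beside 33.8% and 32.9% of all genes. TIMM21, which joins TIM23 to TOM and to respiratory chain assembly, had 65.8 and 66.0 TPM in the sgDDX6.1 libraries, 59.3 and 58.2 TPM in the sgDDX6.2 libraries, and 40.0 and 37.4 TPM in the sgNS libraries. It rose by 61.1% without overlap (log2 difference 0.67 ± 0.04, SE; adjusted p = 1.18e-07). TIMM17A, a channel subunit, had 206 and 203 TPM in the sgDDX6.1 libraries, 184 and 183 TPM in the sgDDX6.2 libraries, and 164 and 159 TPM in the sgNS libraries (log2 difference 0.27 ± 0.03, SE; adjusted p = 2.63e-05). TIMM23, the other core subunit, had 147 and 163 TPM in the sgDDX6.1 libraries, 146 and 149 TPM in the sgDDX6.2 libraries, and 124 and 129 TPM in the sgNS libraries (log2 difference 0.25 ± 0.04, SE; adjusted p = 0.000357). For both, sgNS lay below all sgDDX6 libraries. TIMM23 has a near-identical copy, TIMM23B, so reads could be split between them, and TIMM23B is not analysed here.

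TIMM50, the presequence receptor of TIM23, had 31.6 and 33.4 TPM in the sgDDX6.1 libraries, 29.2 and 30.4 TPM in the sgDDX6.2 libraries, and 25.9 and 27.5 TPM in the sgNS libraries (log2 difference 0.22 ± 0.05, SE; adjusted p = 0.00294). Its sgDDX6 libraries were above sgNS by a small margin, and the sgDDX6.2 call ended without either sgDDX6.2 library (adjusted p = 0.0802 and 0.211) and without sgNS replicate 1 (adjusted p = 0.218). TIMM17B, the X-linked paralog of TIMM17A, had 30.8 and 33.0 TPM in the sgDDX6.1 libraries, 37.8 and 39.0 TPM in the sgDDX6.2 libraries, and 29.2 and 35.1 TPM in the sgNS libraries, so the control libraries spanned the sgDDX6.1 values (log2 difference 0.12 ± 0.07, SE; adjusted p = 0.121). It was called over both guides without sgNS replicate 2 (log2 difference 0.25, adjusted p = 0.00421). Summed TIM23 level was 481 and 498 TPM in the sgDDX6.1 libraries, 457 and 460.2 TPM in the sgDDX6.2 libraries, and 383 and 388 TPM in the sgNS libraries, with every sgDDX6 library above sgNS.

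Of the 5 genes of the import motor 3 fell (GRPEL2, TIMM44 and DNAJC19), beside 32.9% of all genes, GRPEL1 rose and DNAJC15 did not pass the test. Summed motor level was 196 and 197 TPM in the sgDDX6.1 libraries, 171 and 172 TPM in the sgDDX6.2 libraries, and 261 and 257 TPM in the sgNS libraries, below sgNS in every sgDDX6 library. GRPEL2, a GrpE-type exchange factor for HSPA9 known in human cells for its part in redox stress, had 17.2 and 15.8 TPM in the sgDDX6.1 libraries, 14.0 and 13.3 TPM in the sgDDX6.2 libraries, and 47.6 and 43.3 TPM in the sgNS libraries. The groups stood far apart, and GRPEL2 fell by 66.9% (log2 difference -1.54 ± 0.06, SE; adjusted p = 1.5e-09). TIMM44, the anchor of HSPA9 at the channel, had 57.7 and 61.2 TPM in the sgDDX6.1 libraries, 52.1 and 57.3 TPM in the sgDDX6.2 libraries, and 93.2 and 95.6 TPM in the sgNS libraries. It fell by 39.5% (log2 difference -0.72 ± 0.05, SE; adjusted p = 1.39e-07), with all sgDDX6 libraries below sgNS. DNAJC19, a J-domain protein of the inner membrane, had 27.1 and 28.5 TPM in the sgDDX6.1 libraries, 24.1 and 24.1 TPM in the sgDDX6.2 libraries, and 40.2 and 40.9 TPM in the sgNS libraries. It fell by 36.0%, again without overlap (log2 difference -0.63 ± 0.05, SE; adjusted p = 4.06e-07).

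GRPEL1, the constitutive exchange factor, had 83.2 and 81.7 TPM in the sgDDX6.1 libraries, 68.6 and 66.3 TPM in the sgDDX6.2 libraries, and 69.6 and 67.9 TPM in the sgNS libraries. The sgDDX6.1 libraries were above sgNS and the sgDDX6.2 libraries overlapped it, and the call over both guides (log2 difference 0.11 ± 0.04, SE; adjusted p = 0.0234) ended without sgDDX6.2 replicate 1 (adjusted p = 0.0962) and without sgNS replicate 1 or 2 (adjusted p = 0.0533 and 0.146). DNAJC15, a J-domain protein also known as methylation-controlled J protein, had 10.99 and 10.2 TPM in the sgDDX6.1 libraries, 11.8 and 11.3 TPM in the sgDDX6.2 libraries, and 10.3 and 9.54 TPM in the sgNS libraries (log2 difference 0.15 ± 0.07, SE; adjusted p = 0.0678). It overlapped sgNS narrowly, and was called over both guides without sgDDX6.1 replicate 2 (adjusted p = 0.0448) and under quantile normalization (log2 difference 0.20, adjusted p = 0.0145). HSPA9, the mitochondrial Hsp70 on which these genes act and which is no TIMM or TOMM gene, had 439.7 and 425 TPM in the sgDDX6.1 libraries, 383 and 389 TPM in the sgDDX6.2 libraries, and 687 and 671 TPM in the sgNS libraries. It lay below sgNS in all sgDDX6 libraries (log2 difference -0.73 ± 0.03, SE; adjusted p = 2.61e-09).

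**Figure D2:**
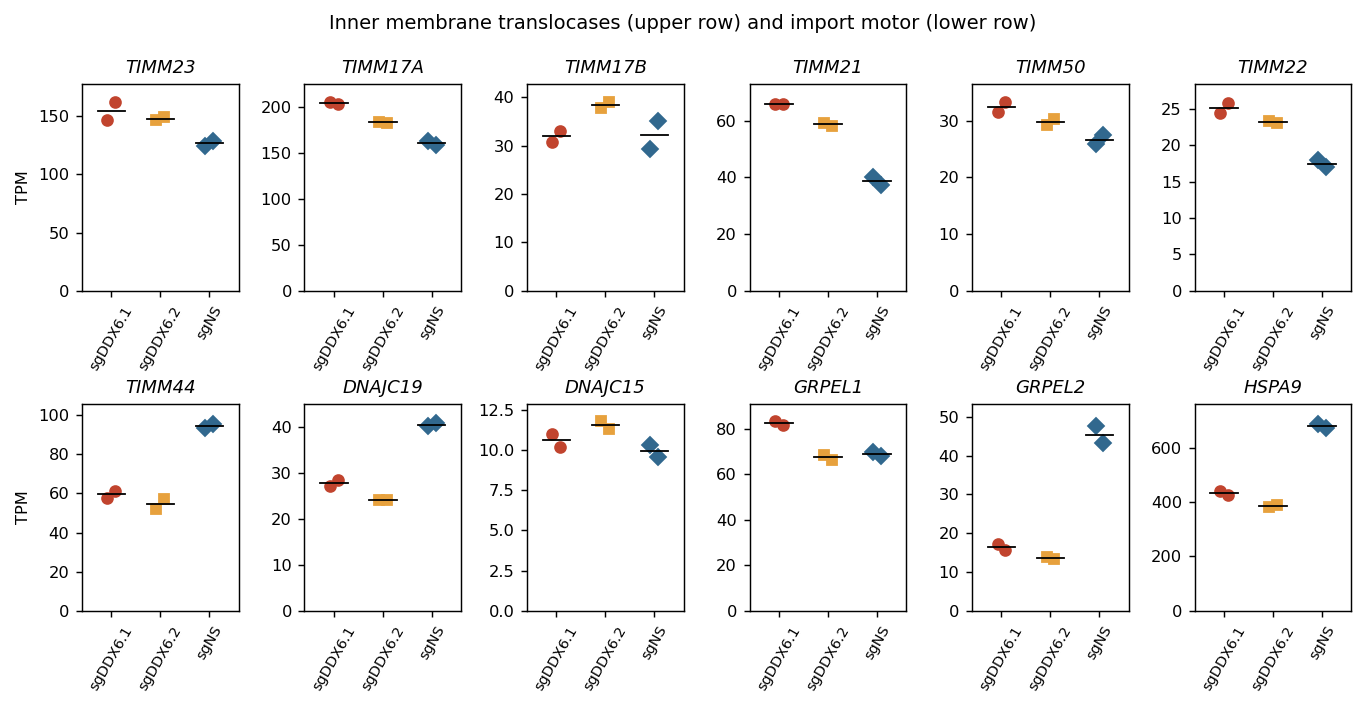
TPM (y axis, from 0) of inner membrane translocase genes in the upper row and of import motor genes with HSPA9 in the lower row, for sgDDX6.1, sgDDX6.2 and sgNS libraries (x axis). Points are single libraries and bars the means of 2; TIMM21 stands at 58.2 to 66.0 TPM in sgDDX6 libraries and 37.4 and 40.0 TPM in sgNS libraries, while GRPEL2 stands at 13.3 to 17.2 TPM in sgDDX6 libraries and 43.3 and 47.6 TPM in sgNS libraries.

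The peptidase subunits also parted. PMPCA, the subunit that grips the presequence, had 125 and 130.5 TPM in the sgDDX6.1 libraries, 118 and 125 TPM in the sgDDX6.2 libraries, and 86.5 and 88.3 TPM in the sgNS libraries. It rose by 42.5% (log2 difference 0.51 ± 0.04, SE; adjusted p = 5.06e-07). PMPCB, the catalytic subunit, had 57.3 and 53.4 TPM in the sgDDX6.1 libraries, 52.8 and 50.1 TPM in the sgDDX6.2 libraries, and 70.9 and 69.5 TPM in the sgNS libraries. It fell by 23.9% (log2 difference -0.39 ± 0.05, SE; adjusted p = 1.48e-05), and neither gene's groups overlapped. TIMMDC1, an assembly factor of respiratory complex I that resembles TIM proteins, had 126 and 124 TPM in the sgDDX6.1 libraries, 128 and 127 TPM in the sgDDX6.2 libraries, and 111 and 110.5 TPM in the sgNS libraries, above sgNS in every sgDDX6 library (log2 difference 0.19 ± 0.03, SE; adjusted p = 0.000536).

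Ratios of TPM within a library set partner genes against each other. GRPEL1 over GRPEL2 was 4.83 and 5.18 in the sgDDX6.1 libraries, 4.91 and 4.995 in the sgDDX6.2 libraries, and 1.46 and 1.57 in the sgNS libraries. PMPCA over PMPCB was 2.19 and 2.44 in the sgDDX6.1 libraries, 2.23 and 2.49 in the sgDDX6.2 libraries, and 1.22 and 1.27 in the sgNS libraries. Both ratios stood well above sgNS in all sgDDX6 libraries, and the guides lay close together. MTX1 over MTX2 was 0.815 and 0.879 in the sgDDX6.1 libraries, 0.897 and 0.848 in the sgDDX6.2 libraries, and 0.608 and 0.654 in the sgNS libraries. DNAJC15 over DNAJC19 was 0.405 and 0.358 in the sgDDX6.1 libraries, 0.489 and 0.469 in the sgDDX6.2 libraries, and 0.256 and 0.233 in the sgNS libraries. These were again higher in every sgDDX6 library, with DNAJC15 still the lower of its pair by level.

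TIMM8A over TIMM8B was 0.364 and 0.364 in the sgDDX6.1 libraries, 0.354 and 0.317 in the sgDDX6.2 libraries, and 0.299 and 0.299 in the sgNS libraries. TIMM17A over TIMM17B was 6.69 and 6.16 in the sgDDX6.1 libraries, 4.86 and 4.70 in the sgDDX6.2 libraries, and 5.59 and 4.53 in the sgNS libraries. TOMM40 over TOMM40L was 4.802 and 4.79 in the sgDDX6.1 libraries, 4.10 and 4.38 in the sgDDX6.2 libraries, and 4.81 and 4.98 in the sgNS libraries. The first of these stood a little above sgNS in the sgDDX6 libraries, the second overlapped it, and the third was lower in sgDDX6.2 and just below sgNS in sgDDX6.1. A few pairs were chosen after their values were seen and are given as values. TIMM10 over TIMM9 averaged 1.63 in sgDDX6.1, 1.66 in sgDDX6.2 and 1.03 in sgNS libraries. TOMM22 over TOMM20 averaged 0.472 in sgDDX6.1, 0.501 in sgDDX6.2 and 0.269 in sgNS libraries. TIMM44 over TIMM23, motor anchor over channel, averaged 0.385 in sgDDX6.1, 0.369 in sgDDX6.2 and 0.745 in sgNS libraries. TIMM8A over TIMM13 averaged 0.620 in sgDDX6.1, 0.578 in sgDDX6.2 and 0.537 in sgNS libraries, and its groups overlapped.

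**Figure D3:**
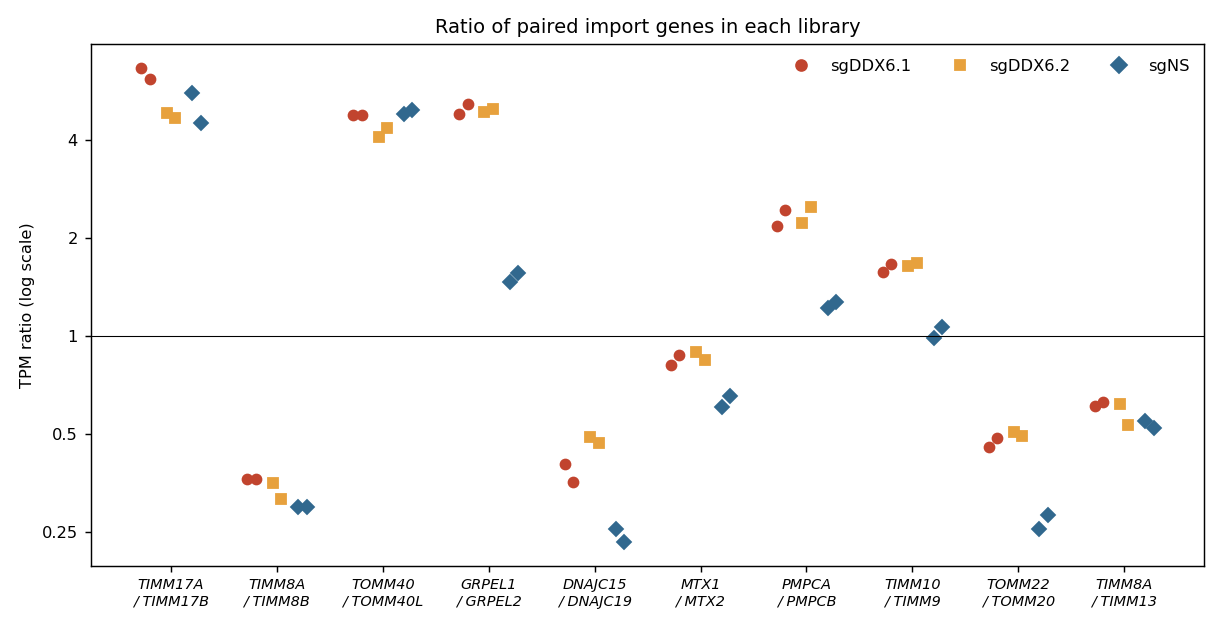
Ratio of the TPM of the first gene to that of the second (y axis, log scale) within each library, for 10 pairs of import genes (x axis). Circles are sgDDX6.1, squares sgDDX6.2 and diamonds sgNS; GRPEL1 over GRPEL2 is 4.83 to 5.18 in sgDDX6 libraries and 1.46 and 1.57 in sgNS libraries.

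With sgDDX6.1, 22 members rose and 8 fell against sgNS, where 61.6% of all genes were called, 31.8% higher and 29.7% lower. With sgDDX6.2, 18 rose and 8 fell, where 64.2% were called, 31.5% higher and 32.7% lower. The comparisons share the sgNS libraries. DNAJC19, GRPEL2, MTX2, PMPCB, TIMM44, TIMM9, TOMM20 and TOMM7 fell with sgDDX6.1, and they fell with sgDDX6.2 as well. TIMM10, TIMM13, TIMM8A, TIMM8B, GRPEL1 and TOMM34 rose with sgDDX6.1 and were not called with sgDDX6.2. TIMM17B (log2 difference 0.26 ± 0.08, SE; adjusted p = 0.0126) and DNAJC15 (0.20 ± 0.08, SE; adjusted p = 0.0333) rose with sgDDX6.2 and were not called with sgDDX6.1. The TIMM17B call ended without sgNS replicate 1 (log2 difference 0.13, adjusted p = 0.155) or sgDDX6.2 replicate 2 (adjusted p = 0.0621), and the DNAJC15 call without either sgDDX6.2 library (adjusted p = 0.165 and 0.0757) or sgNS replicate 2 (adjusted p = 0.186).

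Set directly against each other, sgDDX6.2 was lower than sgDDX6.1 in 16 members and higher in 2, at an adjusted p under 0.05. Among all genes 35.6% were called, 18.6% lower and 17.0% higher. Both sgDDX6.2 libraries lay below both sgDDX6.1 libraries for 24 members and above for 4, against 38.5% and 30.7% of all genes (69.1% in either direction). The median log2 difference was -0.12 for the members and -0.02 for all genes. DDX6 itself did not pass this test, with a log2 difference of -0.01 ± 0.05 (SE, adjusted p = 0.918).

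All 3 TOM receptors were lower with sgDDX6.2, by log2 differences of -0.31 ± 0.04 (SE) for TOMM20 (adjusted p = 0.000276), -0.22 ± 0.05 for TOMM22 (adjusted p = 0.00369) and -0.16 ± 0.04 for TOMM70 (adjusted p = 0.0131). So were 5 of the 6 small TIM genes, with log2 differences of -0.38 for TIMM8A, -0.34 for TIMM9, -0.31 for TIMM10, -0.28 for TIMM13 and -0.27 for TIMM8B, at adjusted p between 0.00046 and 0.00176. CHCHD4, which imports them, was lower as well (-0.29 ± 0.05, SE; adjusted p = 0.000871). TIMM10B, the sixth, did not pass (-0.02 ± 0.05, SE; adjusted p = 0.833). The other members lower with sgDDX6.2 were TOMM40 (-0.26), TOMM5 (-0.18), GRPEL1 (-0.29), GRPEL2 (-0.26), DNAJC19 (-0.20), TIMM17A (-0.16) and TIMM21 (-0.16), all as log2 differences.

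TOMM6 and TIMM17B were higher with sgDDX6.2, by log2 differences of 0.25 ± 0.04 (SE, adjusted p = 0.00167) and 0.26 ± 0.08 (SE, adjusted p = 0.0223). None of the 3 SAM genes passed this test, with log2 differences of -0.00 ± 0.05 for SAMM50, 0.01 ± 0.06 for MTX1 and -0.04 ± 0.05 for MTX2 (SE). Neither did either peptidase subunit, at -0.08 ± 0.05 for PMPCA and -0.10 ± 0.05 for PMPCB (log2 difference, SE). With a trend on transcript GC content removed, an alternative added after the data were seen, PMPCA was called lower (log2 difference -0.14, adjusted p = 0.00643). Without sgDDX6.2 replicate 2, 10 members were called lower, beside 10.2% of all genes, and without each of the other sgDDX6 libraries 12 to 14 were, beside 8.74% to 17.3% of all genes. The members' median log2 difference in these fits was -0.15 to -0.12. DNAJC19, GRPEL2, TIMM17A, TIMM17B, TIMM21, TOMM5 and TOMM70 each lost their call in at least 1 of these fits, in which the group left with a lone library is taken to vary like the others. TIMM21 lost it in all 4 (log2 difference -0.18 to -0.15, adjusted p = 0.0732 to 0.165) and TIMM17B likewise (log2 difference 0.21 to 0.31, adjusted p = 0.0517 to 0.158).

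**Figure D4:**
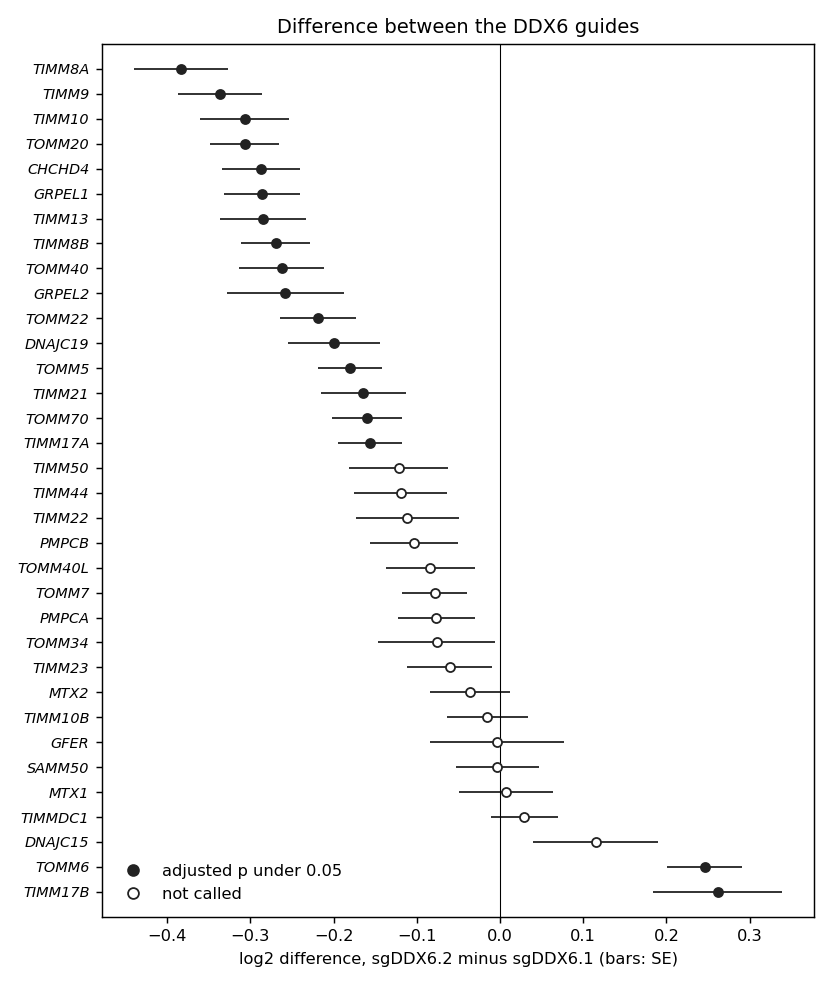
Log2 difference of sgDDX6.2 minus sgDDX6.1 (x axis) with its standard error (bars) for the 34 import genes, ordered from lowest to highest. Filled points passed an adjusted p under 0.05; TIMM8A lies lowest (-0.38) and TIMM17B highest (0.26).

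A further list of 47 genes held import partners and quality control genes, chosen with earlier results of these data known. Over both guides 23 rose and 12 fell, with a median log2 difference of 0.16, beside the 33.8% and 32.9% of all genes given above. Cytosolic chaperones that keep precursors unfolded rose in 7 of 8 cases, with log2 differences of 1.45 ± 0.03 (SE) for HSPA8 (adjusted p = 1.61e-12) and 1.01 ± 0.03 for HSP90AA1 (adjusted p = 6.51e-11). Porins and outer membrane insertases rose in 4 of 5, led by VDAC3 (log2 difference 0.50 ± 0.03, SE; adjusted p = 1.21e-07) and MTCH2 (0.41 ± 0.04, SE; adjusted p = 1.48e-06). Of 7 matrix chaperone genes 4 rose and 2 fell. HSPE1, the cochaperonin of HSPD1, had 502 and 491 TPM in the sgDDX6.1 libraries, 404 and 399 TPM in the sgDDX6.2 libraries, and 256 and 250.1 TPM in the sgNS libraries. It was higher in all sgDDX6 libraries (log2 difference 0.82 ± 0.03, SE; adjusted p = 9.78e-10), the opposite direction to HSPA9.

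Over both guides 33.8% of all genes rose and 32.9% fell, and the counts by group in this paragraph stand beside those shares. Of 8 proteases of the matrix and inner membrane, 3 fell and 1 rose, near the share of all genes that fell. LONP1, the matrix protease that degrades misfolded proteins, had 152 and 158 TPM in the sgDDX6.1 libraries, 124 and 129 TPM in the sgDDX6.2 libraries, and 280.3 and 299 TPM in the sgNS libraries. It stood below sgNS in every sgDDX6 library (log2 difference -1.04 ± 0.04, SE; adjusted p = 9.46e-10), while SPG7, a subunit of the inner membrane m-AAA protease, rose by a log2 difference of 0.23 ± 0.05 (SE, adjusted p = 0.00213). Of 4 inner membrane partners and substrates, SLC25A6, an ADP/ATP carrier that is itself imported through TIM22, fell (log2 difference -0.51 ± 0.04, SE; adjusted p = 1.2e-06) and ROMO1, a small protein tied to TIM23, rose (0.28 ± 0.04, SE; adjusted p = 6.66e-05). The other 2 fell as well, OXA1L, the inner membrane insertase, by a log2 difference of -0.23 ± 0.03 (SE, adjusted p = 0.000104) and AGK, a TIM22 subunit, by -0.34 ± 0.05 (SE, adjusted p = 0.000105). Presequence and peptide processing genes were split, with 2 higher and 2 lower of 6; PITRM1, which degrades cleaved presequences, rose by a log2 difference of 0.33 ± 0.05 (SE, adjusted p = 0.000177) and NLN, a mitochondrial oligopeptidase, by 0.33 ± 0.06 (SE, adjusted p = 0.000459). Of 9 genes of the MICOS complex and its bridge to SAM, 4 rose and 2 fell, with DNAJC11 (log2 difference 0.51 ± 0.04, SE; adjusted p = 7.36e-07) and MINOS1 (0.37 ± 0.05, SE; adjusted p = 4.63e-05) at the lowest adjusted p.

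Members also differed in base composition. The longest coding transcript had a median GC content of 41.6% for the 8 members that fell, 48.9% for the 21 that rose and 49.1% over 10827 tested genes. Across the 34 members the log2 difference over both guides and GC content had a Pearson r of 0.288 and a Spearman rho of 0.337, and across all those genes 0.172 and 0.237. The log10 lengths of the 3' untranslated region, the coding part and the transcript were compared as well. Across the members their Pearson r was -0.078, -0.054 and -0.148, and their Spearman rho -0.00871, 0.0191 and -0.00596. The points share the same 6 libraries, so these are descriptions. TIMM44 stood out among the members that fell, with 59.6% GC, and TIMM21 and TIMM17A among those that rose, with 41.6% and 40.6%. After a trend on GC was removed from each library, an alternative added after the data were seen, 23 members rose and 7 fell, beside 39.9% and 31.9% of the 10827 genes with a GC value, and TIMM8B, TOMM70 and DNAJC15 came to be called higher while MTX2 and TIMM13 lost their calls. In that fit TIMM13 was called lower with sgDDX6.2 (log2 difference -0.14, adjusted p = 0.00269), while its higher call with sgDDX6.1 held. The part of base composition in the results was not tested beyond this.

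**Figure D5:**
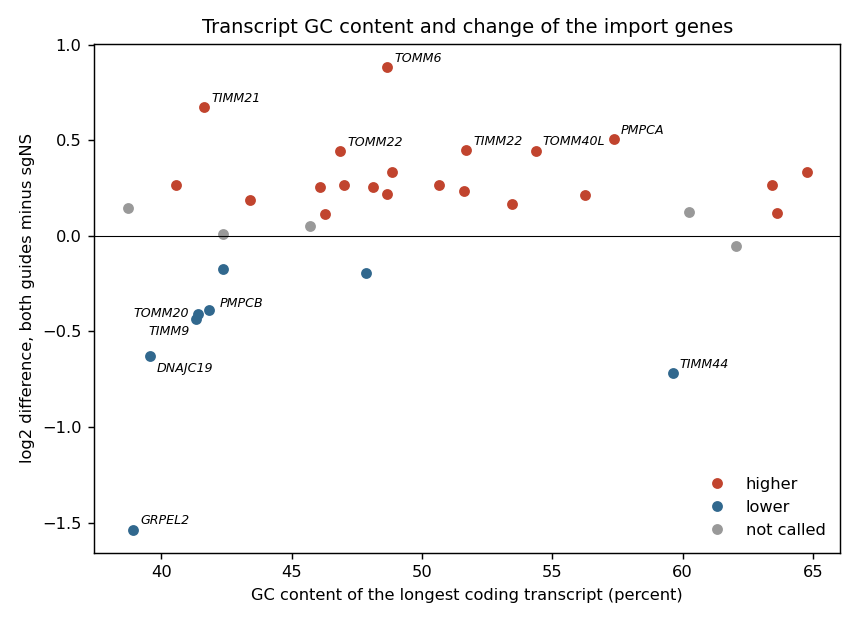
Log2 difference of both guides minus sgNS (y axis) against the GC content of the longest coding transcript in percent (x axis) for the 34 import genes. Points are genes, marked as higher, lower or not called; of the 8 that fell, TIMM44 lies at 59.6% and the other 7 between 38.9% and 47.9%.

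Counting reads was not possible from TPM, and several members share sequence with other genes. In GENCODE release 29, 15 members shared at least 100 exonic bases with another gene, 11 of them with a gene on the opposite strand. Among the members, GRPEL2 shares 127 bases with GRPEL2-AS1, PMPCB 628 with DNAJC2 and TIMM9 223 with KIAA0586, all on the opposite strand. On the same strand, besides TOMM6, TOMM5 shares 520 bases with AL138752.2 and 340 with AL513165.2. TIMM10B shares 412 with AC084337.2, TIMM13 257 with LMNB2 and SAMM50 148 with PNPLA3, also on the same strand. Assigning reads by strand would not part these same-strand genes. Pseudogenes named after the gene exist for 12 members, among them DNAJC19 with 9, TOMM22 with 6 and TOMM20 with 4. Whether reads were assigned by strand is not given in the sources used here, so values of these genes are less certain than the replicate spread shows.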

How the data were processed

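Poly(A)+ RNA was measured in 6 libraries, and groups were read from the titles. The table the authors deposited holds TPM per gene and library, made with RSEM 1.2.31 on GRCh38 per the submitters' processing notes. The aligner, annotation and strand setting were not given in the sources used here. A TPM is a share of its library (each summed to 1000000), so depth is unknown and no counting interval was given. Genes with 1 TPM or more in 2 or more libraries were kept. log2(TPM + 1) was fitted with limma 3.58.1 in R 4.3.3 (3 group means, variance trend, 3 residual degrees of freedom), with two-sided tests, p-values adjusted by Benjamini-Hochberg over 11151 genes, and a threshold of 0.05. Contrasts set both guides, or a single guide, over sgNS and the second DDX6 guide over the first. Differences are on the log2(TPM + 1) scale, which understates those of low genes, and percent changes use mean TPM. The procedure was run on simulated data in which libraries varied independently and only a small part of the genes changed. That run could not test a spread that is purely technical or shared between libraries. The members, lists and motifs were chosen with earlier results of these data known. Values in all libraries are given for up to 3 members per role with the lowest adjusted p, members that differ between guides, and paralog pairs; genes outside this rule, such as TIMM50, were named after their values were seen. Of the other import genes, up to 2 per role with the lowest adjusted p are given, and others were added after their values were seen. GENCODE release 29 gave positions and transcript GC, and RefSeq (GRCh38.p14) promoters. Alternatives were other pseudocounts (0.1 and 5), filters (none, 5 TPM), scalings and variance settings, a replicate term, single libraries left out, other groupings of libraries, and, added later, removal of a GC trend.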

Additional observations from a re-analysis of the deposited data

How the results depend on the processing

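No call was reversed under the alternatives run, and 23 of 29 calls over both guides held in every one, as did 28 of 30 for sgDDX6.1, 20 of 26 for sgDDX6.2 and 11 of 18 between the guides. The share of calls kept was not computed for all genes. The members' median log2 difference moved beyond the replicate spread in a few settings that left out no library. For sgDDX6.1 it became 0.24 with a pseudocount of 5 and 0.23 with quantile normalization. For sgDDX6.2 it became 0.10 with the GC trend removed (added after the data were seen). Between guides it became -0.090 with quantile normalization and -0.10 with median centring, and the cause was not tested. Between guides 1 member rather than 2 was called higher with no filter on low values and 1 without the variance trend. Leaving out single libraries gave medians of 0.19 to 0.25 over both guides, 0.23 to 0.30 for sgDDX6.1, 0.12 to 0.16 for sgDDX6.2 and -0.15 to -0.12 between guides. It gave 18 to 21 members higher and 8 lower over both guides, 21 to 22 and 7 to 8 for sgDDX6.1, 14 to 18 and 7 to 8 for sgDDX6.2, and 1 to 2 higher and 10 to 16 lower between guides. With the 4 sgDDX6 libraries as a single group, 16 members were higher and 8 lower, beside 23.0% and 23.7% of all genes.

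Over 11151 genes, the deviations of same-numbered libraries had r = 0.0399 between the guides, 0.262 for sgDDX6.1 and sgNS, and 0.0977 for sgDDX6.2 and sgNS. The labels name no batch, so the main fit had no replicate term and a replicate block was run as an alternative. These values do not show that same-numbered libraries share only a number. With the replicate block 23 members were higher and 8 lower over both guides, 23 and 8 for sgDDX6.1, 18 and 9 for sgDDX6.2, and 2 and 17 between guides, with medians of 0.20, 0.26, 0.14 and -0.12. Of all genes, 35.6% were then higher and 34.9% lower over both guides, and 34.2% and 32.2% for sgDDX6.1. The shares were 33.7% and 34.9% for sgDDX6.2, and 19.7% and 23.5% between guides. Under the block TIMM17B (log2 difference 0.12, adjusted p = 0.0357) and DNAJC15 (0.15, adjusted p = 0.0469) came to be called higher over both guides, TOMM70 higher with sgDDX6.1 (adjusted p = 0.0471), TIMM8B lower with sgDDX6.2 (adjusted p = 0.0485) and TIMM44 lower between guides (adjusted p = 0.035). Depth is unknown, and 2 libraries a group limit the precision.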
